A study of Homo sapiens with 12 samples.

Results

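The 10 genes described here encode enzymes that make acetyl-CoA from acetate or from pyruvate, together with kinases that restrain the second route. They are the acetyl-CoA synthetases ACSS1, ACSS2 and ACSS3, the pyruvate dehydrogenase subunits PDHA1, PDHB, DLAT and PDHX, and the pyruvate dehydrogenase kinases PDK1, PDK2 and PDK3. They were chosen by name, with earlier results of these data known, and all 10 were found among the 70116 gene identifiers of the count table. The cells were MiaPaCa-2, an established human pancreatic cancer line, transfected with small interfering RNAs (siRNAs), short duplexes through which a cell degrades an mRNA of matching sequence. The 4 groups carried a control siRNA (siControl) or an siRNA against SLC25A1, the mitochondrial citrate carrier (siSLC25A1), against ACLY, the enzyme that cleaves cytosolic citrate into acetyl-CoA and oxaloacetate (siACLY), or against ACO1, the cytosolic aconitase that also binds iron-responsive RNA elements (siACO1). Each group had 3 libraries of poly(A) RNA, 12 in all. The labels give no genotype beyond the cell line and the siRNA, no time of harvest and no nutrient condition, and they do not say how many siRNAs were used per target or whether the libraries of a group came from separate cultures. The p-values therefore measure only the spread between these libraries, which may be technical.

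Acetyl-CoA carries the carbon used for fatty acid and sterol synthesis and for the acetylation of proteins. In the cytosol it comes mainly from citrate, which SLC25A1 exports from mitochondria and ACLY cleaves, and ACSS2 offers a second source by joining acetate to coenzyme A. In mitochondria the pyruvate dehydrogenase complex turns pyruvate into acetyl-CoA, and the kinases switch the complex off by phosphorylating its E1 alpha subunit.

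Library totals ran from 24159424 to 43792811 counts, and 16197 genes were tested. The targeted genes matched the labels: SLC25A1 was at 8.78% of siControl in siSLC25A1, ACLY at 7.25% in siACLY and ACO1 at 3.75% in siACO1. Replicate 3 of siACO1 stood apart from its group: the chi-square per degree of freedom was 10.7 and 11.3 against replicates 1 and 2, while every other pair within a group lay between 2.24 and 5.37. Its genes' deviations from the group mean correlated with exon length (Spearman's rho = -0.23), against 0.131 and 0.17 in replicates 1 and 2. In the libraries of the other groups rho ran from -0.099 to 0.036. The part of exon length in the siACO1 results was not tested. The keratins KRT8, KRT18 and KRT19 and vimentin (VIM), the markers of this line, were counted in every library, but EPCAM, a further epithelial marker, had 0 to 2 counts. PTPRC, CD3E, PRSS1, CPA1, INS and GCG, which mark leukocytes, acinar cells and islet cells, had 0 counts, and CD68, PECAM1, CDH5, COL1A1 and DCN had at most 9 in any library. The third fibroblast gene of the marker list, COL1A2, was abundant and rose in siACO1, from 885 ± 10.2 CPM (counts scaled to a common library size; SD, n = 3) to 1580 ± 26.4, while KRT8 fell from 2280 ± 52.4 to 1280 ± 28.5, KRT18 from 1320 ± 22.1 to 773 ± 32.9 and KRT19 from 88.4 ± 2.7 to 52 ± 4.65. In the other knockdowns KRT19 rose, to 121 ± 4.77 CPM in siSLC25A1 and 141 ± 2.19 in siACLY, and VIM rose in siACLY from 3560 ± 80.7 to 4560 ± 273, while KRT8, KRT18 and COL1A2 were lower in siSLC25A1, at 2010 ± 116, 1150 ± 47.6 and 807 ± 32.3 CPM. The part of these marker changes in the results was not tested. In such bulk RNA, fewer cells of a type and less RNA per cell cannot be told apart.

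Promoter sequence from RefSeq (GRCh38.p14) was found for 9 of the 10 genes, all but ACSS3, as 15 windows of 250 bases that end at an annotated start. Stretches that overlap no exon are shown, 5′ to 3′ on the gene's strand, for 4 genes on which the results turn: ACSS2 and PDK3, which both rose in siACLY, and PDHA1 and PDHB, the partner subunits of the E1 enzyme, which moved in opposite directions in siACO1. Capitals mark matches to GGGCGG (the GC box), CCAAT (the CCAAT box), CACGTG (the E-box) or ACGTG (the hypoxia response core, which is part of CACGTG), on either strand. The stretches lie at chr20:34874739-34874941 (plus strand) for ACSS2, chrX:24465036-24465220 (plus) for PDK3, chrX:19343677-19343892 (plus) for PDHA1 and chr3:58433858-58434082 (minus) for PDHB. ACSS2 has a second such stretch, of 73 bases before another start (chr20:34876362-34876434), which held none of these motifs and is not printed. The whole window before that start held 3 matches to GGGCGG, all in the exon bases left out.
ACSS2: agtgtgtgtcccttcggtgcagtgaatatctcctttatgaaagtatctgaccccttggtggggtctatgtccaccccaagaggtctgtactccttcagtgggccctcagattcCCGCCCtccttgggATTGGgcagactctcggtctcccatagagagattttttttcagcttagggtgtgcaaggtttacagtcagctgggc
PDK3: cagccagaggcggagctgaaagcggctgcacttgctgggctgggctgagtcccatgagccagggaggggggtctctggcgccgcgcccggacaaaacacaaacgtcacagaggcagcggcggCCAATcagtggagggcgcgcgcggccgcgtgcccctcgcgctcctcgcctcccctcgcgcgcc
PDHA1: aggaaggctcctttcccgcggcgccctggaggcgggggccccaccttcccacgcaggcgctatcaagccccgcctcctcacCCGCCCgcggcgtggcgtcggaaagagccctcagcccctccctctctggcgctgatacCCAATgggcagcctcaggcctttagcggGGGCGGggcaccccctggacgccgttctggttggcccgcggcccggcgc
PDHB: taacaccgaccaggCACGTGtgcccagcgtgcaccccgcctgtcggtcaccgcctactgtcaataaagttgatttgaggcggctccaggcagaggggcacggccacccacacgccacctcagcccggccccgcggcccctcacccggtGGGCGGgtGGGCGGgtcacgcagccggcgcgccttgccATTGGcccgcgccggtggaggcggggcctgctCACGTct

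Each printed stretch held a CCAAT match on one of the strands. Those of ACSS2, PDHA1 and PDHB also held the GC box, and the PDHB stretch alone among the 4 held the E-box. The whole PDK3 window held 2 matches to GGGCGG and 1 to ACGTG, all in the exon bases left out of its printed stretch. Over the whole windows, GGGCGG was found in 11 of the 15, against 42.6% of 35116 RefSeq windows of the same length, and CCAAT in 7, against 32.0%. The other counts were 2 windows with CACGTG, against 6.34% of all, and 6 with ACGTG, against 18.5%. No window held TCACNCCAC (a sterol regulatory element core; 0.883% of all windows), GCGCATGCG (an NRF1 core; 1.64%) or TGATGCAA (a CHOP and ATF4 composite; 0.772%). Several genes have more than 1 start, so some windows overlap. The GC content of the 15 ran from 35.6% to 79.6%, against a median of 58.0% for all windows. Those below that median were windows of ACSS2 (53.6%), PDK1 (35.6%) and PDK2 (51.2%), and the rest lay above it. The part of GC content in the GGGCGG matches was not tested. A match is a description of the letters, not a binding site.

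The levels of the 10 genes spanned a wide range. Per kilobase of annotated exon, PDHA1 was the most abundant in siControl, at 77 CPM per kb ± 1.36 (SD, n = 3), followed by PDHX at 33.7 ± 0.485, DLAT at 26.1 ± 0.373 and PDHB at 10.2 ± 0.565. The synthetases came next, with ACSS2 at 4.14 ± 0.229 CPM per kb and ACSS1 at 3.23 ± 0.19. The kinases were the lowest of those counted: PDK3 was at 2.75 ± 0.113, PDK1 at 1.29 ± 0.024 and PDK2 at 0.812 ± 0.0732 CPM per kb. None of these neighbours overlapped in siControl. The order changed at 1 place, where PDK3 reached 3.91 ± 0.0593 in siACLY and passed ACSS1, at 3.42 ± 0.205; in siSLC25A1, ACSS1 (2.96 ± 0.377) and PDK3 (2.61 ± 0.175) overlapped. The lengths are the union of all annotated exons, so a gene with long alternative exons, such as PDK1, is set lower than 1 of its transcripts would be.

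ACSS3, a mitochondrial short-chain acyl-CoA synthetase (chromosome 12, 80936414 to 81261205), had 0 counts in all 12 libraries and was not tested. A count of 0 allows up to 3 counts, which is 0.0685 CPM in the deepest library and 0.124 CPM in the shallowest, counting error only. This 0 cannot be read as absence of the transcript, because genes that most cells use were also listed near 0: LDHA had 0 to 4 counts per library, FDFT1 5 to 21 and BCKDHA 3 to 19. The cause of these low counts was not tested.

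**Figure D1:**
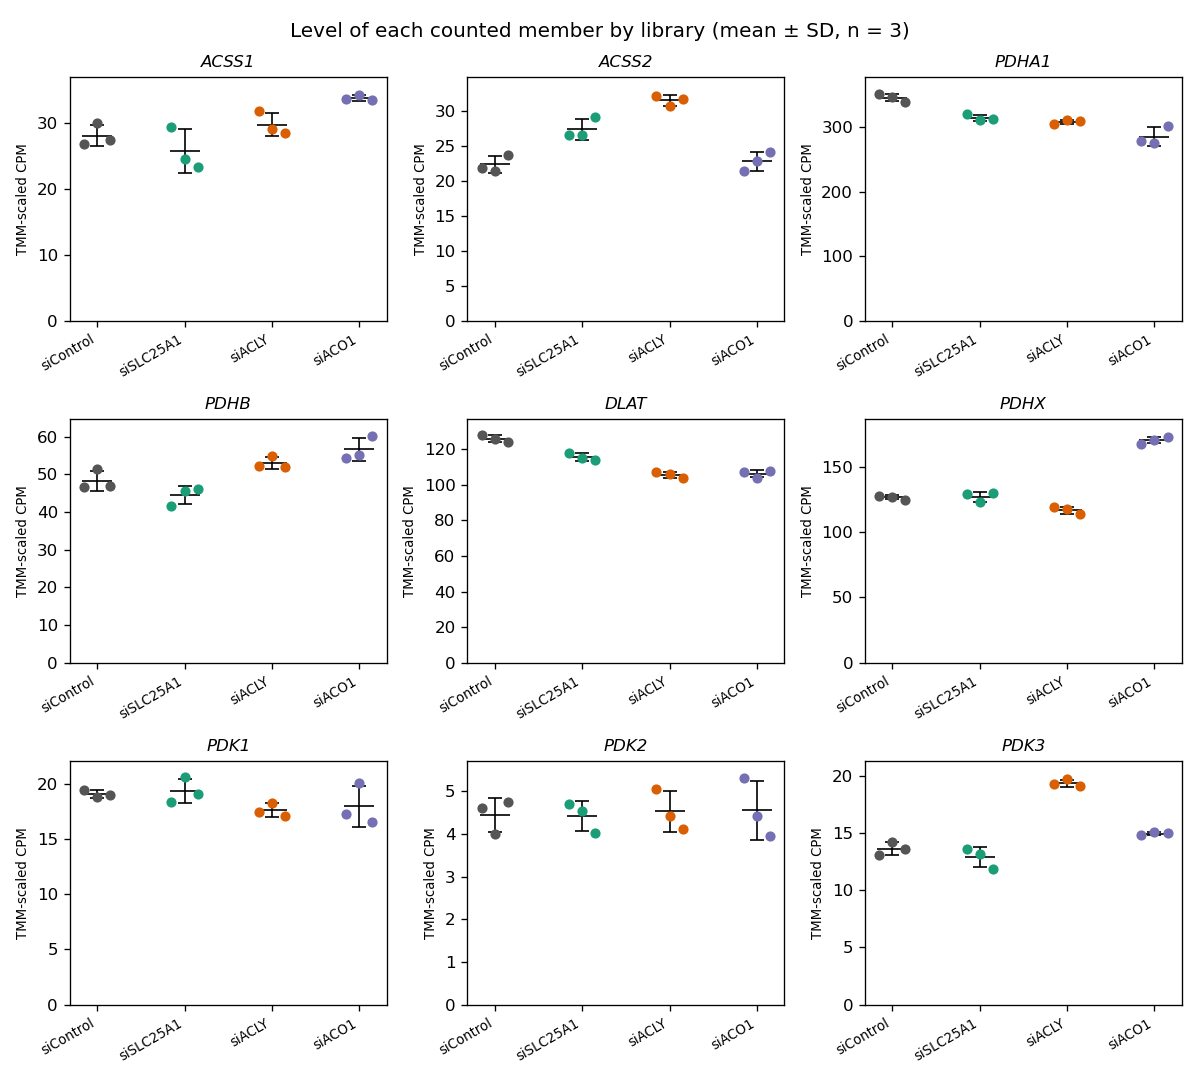
Level of the 9 counted genes in each library, in CPM scaled by trimmed mean of M values (y axes start at 0), for the 4 siRNA groups. Points are libraries, and bars are the mean ± SD (n = 3). ACSS2 and PDK3 stand highest in siACLY, and PDHX stands highest in siACO1, at 168 to 173 CPM against 125 to 128 in siControl.

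Of the 9 genes tested, 7 differed among the 4 groups (edgeR's quasi-likelihood F test, adjusted p under 0.05), against 62.3% of all 16197 genes tested. The 2 that did not pass were PDK1 (adjusted p = 0.295) and PDK2 (adjusted p = 0.985). Against siControl, 3 of 9 were called in siSLC25A1, where 19.6% of all genes were; ACSS2 was higher (10.3% of all genes were called higher) and PDHA1 and DLAT were lower (9.27%). In siACLY 5 of 9 were called, against 36.7% of all genes: ACSS2 and PDK3 were higher (18.4% of all genes) and PDHA1, DLAT and PDHX were lower (18.3%). In siACO1 5 of 9 were called, against 37.1% of all genes: ACSS1, PDHB and PDHX were higher (17.8% of all genes) and PDHA1 and DLAT were lower (19.3%). The shares among the 9 genes were read only as a description, since their number is small and the background is high. The median log2 fold change of the 9 was -0.08 in siSLC25A1, 0.04 in siACLY and 0.03 in siACO1, beside -0.00, 0.01 and 0.01 over all genes tested. These 3 comparisons share the siControl libraries. The siSLC25A1 count of 3 fell to 1 when siControl replicate 1, siSLC25A1 replicate 2 or siSLC25A1 replicate 3 was left out, with ACSS2 still called.

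**Figure D2:**
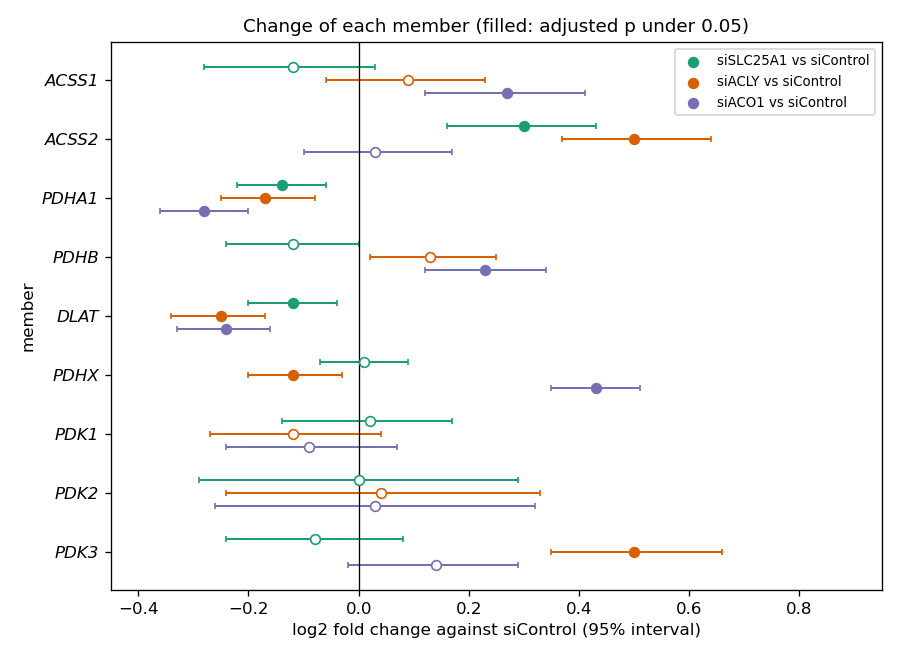
Change of each tested gene in each knockdown against siControl, as the log2 fold change (x axis) with its 95% interval from the edgeR fit, for the 9 genes on the y axis. Filled points passed an adjusted p of 0.05. PDHA1 and DLAT lie left of 0 in all 3 knockdowns, while ACSS2 and PDK3 reach 0.50 in siACLY and PDHX reaches 0.43 in siACO1.

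ACSS2, the nuclear and cytosolic acetyl-CoA synthetase (chromosome 20, 34872146 to 34927962, plus strand), rose when citrate export or citrate cleavage was targeted and not when ACO1 was. Its levels in the 3 libraries of each group were 21.8, 21.4 and 23.7 CPM in siControl, 26.5, 26.5 and 29.1 in siSLC25A1, 32.1, 30.6 and 31.7 in siACLY, and 21.4, 22.8 and 24.1 in siACO1. The siACLY libraries were all above those of siSLC25A1, these were all above siControl, and siControl and siACO1 overlapped. The log2 fold change against siControl was 0.30 ± 0.07 (SE; 123% of siControl; adjusted p = 0.00159) in siSLC25A1 and 0.50 ± 0.07 (142%; adjusted p = 4.38e-07) in siACLY. In siACO1 it was 0.03 (95% interval -0.10 to 0.17; adjusted p = 0.748). The knockdowns also differed from each other. ACSS2 was higher in siACLY than in siSLC25A1 by 0.20 ± 0.07 on the log2 scale (adjusted p = 0.0154), a call that was lost when siSLC25A1 replicate 1 or 2 or siACLY replicate 1 was left out (0.18 to 0.19, adjusted p = 0.0627 to 0.07). It was lower in siACO1 than in siSLC25A1 (-0.26 ± 0.07, adjusted p = 0.00206) and than in siACLY (-0.47 ± 0.07, adjusted p = 9.64e-07).

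ACSS1, the mitochondrial acetyl-CoA synthetase (chromosome 20, 25006230 to 25058980, minus strand), followed another order. It stood at 26.8, 29.9 and 27.4 CPM in siControl, 29.4, 24.5 and 23.2 in siSLC25A1, 31.7, 29 and 28.4 in siACLY, and 33.6, 34.2 and 33.4 in siACO1. Only the siACO1 libraries lay apart from siControl, all above it, while the siSLC25A1 libraries were spread below and within its range. The log2 fold change was 0.27 ± 0.07 (SE; 120% of siControl; adjusted p = 0.00393) in siACO1, 0.09 (95% interval -0.06 to 0.23; adjusted p = 0.375) in siACLY and -0.12 (-0.28 to 0.03; adjusted p = 0.262) in siSLC25A1. Without siSLC25A1 replicate 1, the highest of its group, the siSLC25A1 value was -0.24 (adjusted p = 0.0248). Between knockdowns, ACSS1 was higher in siACO1 than in siSLC25A1 by 0.39 ± 0.07 (adjusted p = 7.98e-05). The smaller differences of 0.21 ± 0.07 between siACLY and siSLC25A1 (adjusted p = 0.0279) and 0.18 ± 0.07 between siACO1 and siACLY (adjusted p = 0.0446) were each lost when single libraries were left out: siSLC25A1 replicate 2 or 3 or siACLY replicate 1 for the first, and siControl replicate 1 or 3, siACLY replicate 2 or 3 or siACO1 replicate 1 or 2 for the second (adjusted p = 0.051 to 0.2 over these). The difference between siACO1 and siACLY was also lost with DESeq2 on all libraries (0.18, adjusted p = 0.0558).

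The complex's E1 enzyme is built from PDHA1, the E1 alpha subunit that the kinases phosphorylate (chromosome X, 19343893 to 19361705, plus strand), and PDHB, the E1 beta subunit (chromosome 3, 58427630 to 58433857, minus strand). PDHA1 stood at 351, 347 and 339 CPM in siControl, 320, 311 and 312 in siSLC25A1, 305, 311 and 309 in siACLY, and 278, 275 and 302 in siACO1. Every knockdown library was below every siControl library, and the siACO1 libraries were the lowest, with replicate 3 the highest of them. Against siControl the log2 fold change was -0.14 ± 0.04 (SE; adjusted p = 0.0134) in siSLC25A1, -0.17 ± 0.04 (adjusted p = 0.00153) in siACLY and -0.28 ± 0.04 (adjusted p = 1.97e-06) in siACO1, or 90.9%, 89.2% and 82.4% of siControl. The siSLC25A1 call was lost without siControl replicate 1, siSLC25A1 replicate 2 or siSLC25A1 replicate 3 (-0.13 in each, adjusted p = 0.0579 to 0.0672). Of the exon bases of PDHA1, 21.3% overlap those of MAP3K15, which had 23 to 68 counts per library against at least 6905 for PDHA1; whether counting used the strand is not given in the sources used here.

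PDHB did not follow its partner. It stood at 46.6, 51.4 and 46.9 CPM in siControl, 41.7, 45.7 and 46.1 in siSLC25A1, 52.3, 54.8 and 51.9 in siACLY, and 54.5, 55.3 and 60.1 in siACO1. The siSLC25A1 libraries were below siControl and the libraries of both other knockdowns above it, by narrow margins in siSLC25A1 and siACLY. In the test its log2 fold change was 0.23 ± 0.06 (SE; 117% of siControl; adjusted p = 0.00141) in siACO1, while 0.13 ± 0.06 in siACLY (adjusted p = 0.0608) and -0.12 ± 0.06 in siSLC25A1 (adjusted p = 0.145) did not pass. The siACLY value lay near the threshold and passed in 7 of the 19 alternative analyses. PDHB was higher in siACLY than in siSLC25A1 by 0.25 ± 0.06 (adjusted p = 0.000819) and higher in siACO1 than in siSLC25A1 by 0.35 ± 0.06 (adjusted p = 9.29e-06). Of its 31-base words, 6.8% also occur elsewhere in the annotated transcripts.

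DLAT, the E2 subunit that carries the lipoyl groups and forms acetyl-CoA (chromosome 11, 112024814 to 112064390, plus strand), was lower in all 3 knockdowns. Its levels were 128, 126 and 124 CPM in siControl, 118, 115 and 114 in siSLC25A1, 107, 106 and 104 in siACLY, and 107, 104 and 108 in siACO1. No knockdown library reached the siControl range, and siACLY and siACO1 overlapped each other below siSLC25A1. The log2 fold change was -0.25 ± 0.04 (SE; 83.9% of siControl; adjusted p = 9.98e-06) in siACLY and -0.24 ± 0.04 (84.5%; adjusted p = 1.74e-05) in siACO1. In siSLC25A1 it was -0.12 ± 0.04 (adjusted p = 0.0299), and this call was lost without any 1 of the siControl libraries, without siSLC25A1 replicate 2 or 3, or with no filter on low counts (adjusted p = 0.0544 to 0.11).

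PDHX, the component that anchors the E3 enzyme to the E2 core (chromosome 11, 34915829 to 35020591, plus strand), showed the smallest p of the 9 genes in the test of any difference among groups (adjusted p = 5.05e-12). It stood at 128, 127 and 125 CPM in siControl, 129, 123 and 130 in siSLC25A1, 119, 118 and 114 in siACLY, and 168, 171 and 173 in siACO1. The siACO1 libraries were far above all others, the siACLY libraries were just below siControl, and siSLC25A1 straddled siControl. The log2 fold change in siACO1 was 0.43 ± 0.04 (SE; 135% of siControl; adjusted p = 7.96e-10), and against siSLC25A1 and siACLY the siACO1 libraries were higher by 0.42 ± 0.04 (adjusted p = 8.88e-10) and 0.55 ± 0.04 (adjusted p = 4.50e-12). The siACLY value was -0.12 ± 0.04 (adjusted p = 0.0236); scaled by library totals alone it was -0.07 (adjusted p = 0.164), and it also failed to pass with no filter on low counts or without siControl replicate 1, siControl replicate 2 or siACLY replicate 3 (adjusted p = 0.0618 to 0.106). In siSLC25A1 the value was 0.01 (95% interval -0.07 to 0.09; adjusted p = 0.897). Among the genes whose levels followed PDHX most closely over the 12 libraries were ADGRE5 (Pearson's r = 0.988) and BICD1 (0.987); for BICD1 the group means were 52.9, 53.5, 48.6 and 77.5 CPM in siControl, siSLC25A1, siACLY and siACO1. For ACSS2 they were RCAN1 (r = 0.963), INO80C (0.962) and PPP1R15A (0.951), and RCAN1 stood at 220, 274, 333 and 214 CPM in the same order. These coefficients rest on 12 libraries in 4 groups and on genes picked for the highest r, so they carry no test.

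PDK1, PDK2 and PDK3 are kinases that inactivate the complex, and PDK1 is also known as a target of the hypoxia-inducible factor HIF1. PDK3 (chromosome X, 24465221 to 24541862, plus strand) was the kinase that moved. It stood at 13.1, 14.2 and 13.6 CPM in siControl, 13.6, 13.2 and 11.9 in siSLC25A1, 19.3, 19.7 and 19.1 in siACLY, and 14.8, 15.1 and 15 in siACO1. The siACLY libraries were above all others, the siACO1 libraries were just above siControl, and siSLC25A1 overlapped siControl. The log2 fold change was 0.50 ± 0.07 (SE; 142% of siControl; adjusted p = 3.35e-06) in siACLY, 0.14 (95% interval -0.02 to 0.29; adjusted p = 0.171) in siACO1 and -0.08 (-0.24 to 0.08; adjusted p = 0.553) in siSLC25A1. PDK3 was higher in siACLY than in siSLC25A1 by 0.58 ± 0.08 (adjusted p = 7.06e-07), and lower in siACO1 than in siACLY (-0.37 ± 0.07, adjusted p = 0.000182). The difference of 0.21 ± 0.08 between siACO1 and siSLC25A1 (adjusted p = 0.0295) was lost without siSLC25A1 replicate 3 (0.16, adjusted p = 0.148) and without siACO1 replicate 2 or 3 (adjusted p = 0.0709 and 0.0548), and also with no filter on low counts (adjusted p = 0.0651) or only these 2 groups in the fit (adjusted p = 0.0708).

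PDK1 (chromosome 2, 172555373 to 172608669, plus strand) stood at 19.5, 18.8 and 19 CPM in siControl, 18.4, 20.6 and 19.1 in siSLC25A1, 17.5, 18.3 and 17.1 in siACLY, and 17.3, 20.1 and 16.6 in siACO1. The siACLY libraries lay below siControl by little, and the other groups overlapped it. Its log2 fold changes were 0.02 (95% interval -0.14 to 0.17), -0.12 (-0.27 to 0.04) and -0.09 (-0.24 to 0.07) in siSLC25A1, siACLY and siACO1. PDK2 (chromosome 17, 50094737 to 50112152, plus strand) was the least precise, with 97 to 225 counts per library and 3.95 to 5.31 CPM, and all groups overlapped. Its intervals ran from -0.29 to 0.29 in siSLC25A1, -0.24 to 0.33 in siACLY and -0.26 to 0.32 in siACO1, so changes of this size could not be seen at this depth. Of its exon bases 38.6% overlap those of SAMD14, which had 7 to 65 counts and was higher in siACLY (log2 fold change 1.10, adjusted p = 0.0198), so the PDK2 counts are uncertain.

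Between the knockdowns, 6 of the 9 genes were called in siACLY against siSLC25A1 (33.8% of all genes), 7 in siACO1 against siSLC25A1 (42.1% of all genes) and 5 in siACO1 against siACLY (42.1%). The last count fell to 3 when siACLY replicate 2 or 3 or siACO1 replicate 1 or 2 was left out, with the ACSS1 and PDHA1 calls lost each time. In these tests PDHA1 was lower in siACO1 than in siSLC25A1 (-0.14 ± 0.04, adjusted p = 0.00538) and than in siACLY (-0.11 ± 0.04, adjusted p = 0.0229), and the latter call was also lost with no filter on low counts (adjusted p = 0.0734) and with only these 2 groups in the fit (adjusted p = 0.0695). DLAT was lower in siACLY (-0.13, adjusted p = 0.0128) and siACO1 (-0.12, adjusted p = 0.0178) than in siSLC25A1, and PDHX was lower in siACLY than in siSLC25A1 (-0.13, adjusted p = 0.0161). All 3 of these calls were lost with library totals (-0.08 to -0.09, adjusted p = 0.0796 to 0.132) and with no filter on low counts (adjusted p = 0.0745 to 0.112). Single libraries ended them too: siACLY replicate 3 for both siACLY calls (adjusted p = 0.0504 for DLAT and 0.0798 for PDHX), siSLC25A1 replicate 3 for PDHX (0.0662), and siSLC25A1 replicate 1 or siACO1 replicate 2 for DLAT in siACO1 (0.0623 and 0.0746), which was also lost with only the 2 groups in the fit (0.0659). Without siACO1 replicate 3, the library that stood apart, the same number of genes, 5, was called against siControl. The values were then 0.27 for ACSS1, -0.32 for PDHA1, 0.19 for PDHB, -0.26 for DLAT and 0.42 for PDHX.

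Because the subunits moved differently, the ratio of 2 genes' counts within a library differed between groups, a quantity that does not depend on how libraries are scaled. PDHX to DLAT, both parts of the complex's core, was 1.00 to 1.01 in the siControl libraries, 1.07 to 1.14 in siSLC25A1, 1.09 to 1.12 in siACLY and 1.57 to 1.64 in siACO1. No siControl library overlapped a knockdown group. PDHB to PDHA1 was 0.133 to 0.148 in siControl and 0.130 to 0.148 in siSLC25A1, with 0.168 to 0.176 in siACLY and 0.196 to 0.201 in siACO1, and neither of these overlapped siControl or the other. ACSS2 to ACSS1 was 0.715 to 0.865 in siControl, 0.902 to 1.25 in siSLC25A1, 1.01 to 1.12 in siACLY and 0.635 to 0.721 in siACO1, so that siControl and siACO1 overlapped by 1 library. PDK3 to PDK1 was on average 0.713 in siControl, 0.667 in siSLC25A1, 1.10 in siACLY and 0.838 in siACO1. The pairs were chosen after the values of their genes were known, so the ratios are a description, and gene lengths are not taken out of them.

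**Figure D3:**
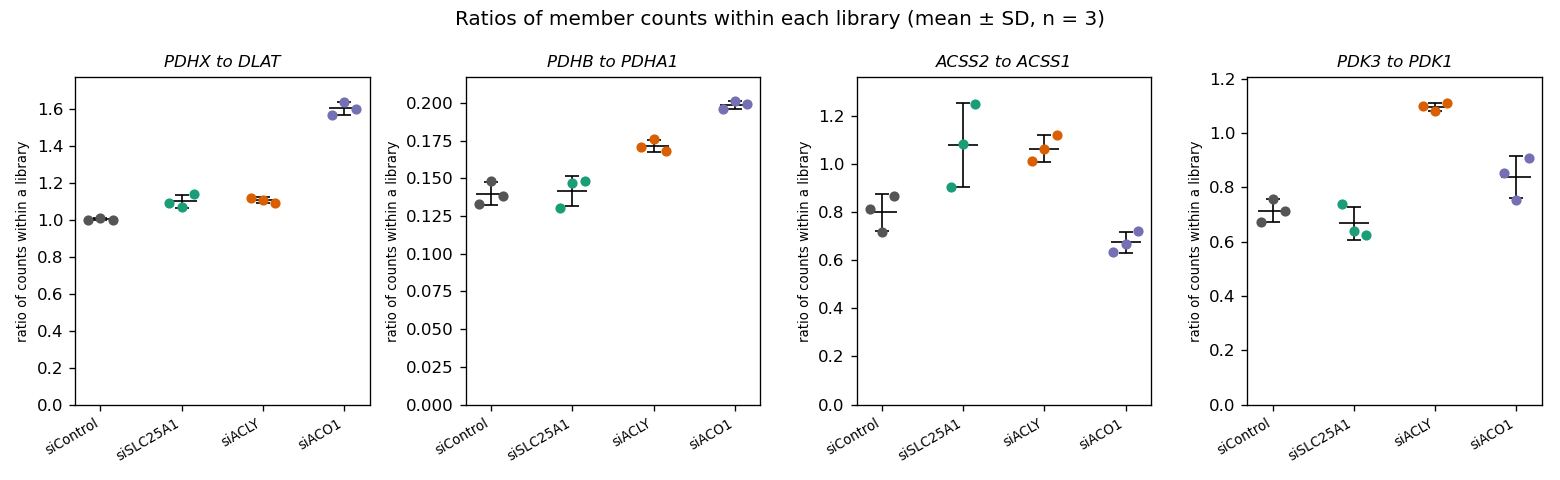
Ratio of the counts of 2 genes within each library (y axes start at 0) for the 4 siRNA groups. Points are libraries, and bars are the mean ± SD (n = 3). PDHX to DLAT is 1.57 to 1.64 in siACO1 against 1.00 to 1.01 in siControl, and PDHB to PDHA1 is higher in siACLY and siACO1 than in siControl.

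The other parts of the complex and its regulators were read from a list of 6 genes, 5 of them tested. DLD, the E3 enzyme that reoxidises the lipoyl groups, stood at 167, 169 and 173 CPM in siControl and 139, 137 and 140 in siSLC25A1. All siSLC25A1 libraries were below siControl (log2 fold change -0.30 ± 0.04 SE, adjusted p = 2.93e-06), while the value was 0.00 in siACLY (adjusted p = 0.949) and -0.09 in siACO1 (adjusted p = 0.0877). PDP2, a phosphatase that reactivates the complex, was lower in siSLC25A1 (-0.18, adjusted p = 0.0151) and higher in siACLY (0.19, adjusted p = 0.00334). PDP1, the other phosphatase of the list, did not pass the test of any difference among groups (adjusted p = 0.584). PDPR, a regulatory subunit of pyruvate dehydrogenase phosphatase, was higher in siACLY (0.18, adjusted p = 0.0331). Of the 31-base words of PDPR, however, 23% occur elsewhere. The PDPR call was lost in 7 of 19 alternatives (adjusted p = 0.0649 to 0.118), among them those without siControl replicate 1 or 2, siSLC25A1 replicate 1 or any 1 of the siACLY libraries, and PDPR did not pass the test of any difference among groups (adjusted p = 0.0752). The PDP2 call in siSLC25A1 was lost without siControl replicate 2 or 3 or siSLC25A1 replicate 1 or 2 (adjusted p = 0.0524 to 0.0882). In all, 2 passed in siSLC25A1, both lower, 2 in siACLY, both higher, and 0 in siACO1 with edgeR (2 at an unadjusted p under 0.05, and 0 with DESeq2), with medians of -0.18, 0.18 and 0.05 beside -0.00, 0.01 and 0.01 over all genes. Beside these counts, 19.6%, 36.7% and 37.1% of all genes tested were called, so the siACLY count is near the background. PDHA2, the testis form of E1 alpha, had 0 counts, and PDK4, the fourth kinase, had 1 to 21 counts per library, too few for a change to be read.

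Genes that bring pyruvate and cofactors to the complex were called in siACLY (3 of 8 tested, all higher, median 0.23) and siACO1 (1 higher, 3 lower, median -0.19). The siACLY count is near the 36.7% of all genes called there, and the siACO1 count stands beside 37.1%. With edgeR 0 of the 8 passed in siSLC25A1 (median 0.07; 0 at an unadjusted p under 0.05, and 0 with DESeq2). MPC2, a subunit of the mitochondrial pyruvate carrier, was higher in siACLY (log2 fold change 0.22, adjusted p = 0.00317) and siACO1 (0.35, adjusted p = 1.44e-05), with 22.5% of its exon bases shared with another gene. MPC1, the carrier's other listed subunit, was lower on average in siACO1, at 15.3 ± 1.72 CPM (SD, n = 3) against 18.1 ± 0.672 in siControl. The highest siACO1 library and the lowest siControl library both stood at 17.3 CPM. In siACLY the mean of MPC1 was 17.3 ± 0.172 CPM. LIPT2, a lipoyl transferase, was higher in siACLY (0.73, adjusted p = 0.00171), from a low level of 2.22 CPM in siControl; 31% of the exon bases of LIPT2 overlap another gene. In siACO1 SLC19A2, a thiamine transporter of the plasma membrane, was lower (-0.42, adjusted p = 0.0119), a call lost without siControl replicate 1 or 3 or siACO1 replicate 1 (-0.37 to -0.29, adjusted p = 0.0588 to 0.0942).

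The sister complexes for 2-oxoglutarate and branched-chain 2-oxoacids share the architecture of pyruvate dehydrogenase. Of 8 tested genes, 2 rose and 2 fell in siSLC25A1 (median 0.01), 3 passed in siACLY, all higher (0.15), and 4 rose and 1 fell in siACO1 (0.12). Of all genes tested, 19.6%, 36.7% and 37.1% were called in these comparisons, so the siACLY count is near the background. In siACO1 3 genes of the branched-chain complex rose: BCKDHB, the E1 beta subunit (0.34, adjusted p = 7.40e-06), DBT, the E2 subunit (0.25, adjusted p = 0.000701), and BCKDK, the kinase (0.38, adjusted p = 5.82e-07). PPM1K, its phosphatase, was at 0.11 there (adjusted p = 0.753). OGDH, the E1 of the 2-oxoglutarate complex, rose in siACLY (0.21, adjusted p = 6.41e-05) and fell in siACO1 (-0.14, adjusted p = 0.00543; -0.09 with library totals, adjusted p = 0.0738). DLST, its E2, rose in siSLC25A1 (0.20, adjusted p = 0.00109), where DBT fell (-0.21, adjusted p = 0.00815; 0.0673 without siSLC25A1 replicate 3). PPM1K rose in siSLC25A1 (0.69 ± 0.22, adjusted p = 0.0222) and siACLY (0.73 ± 0.21, adjusted p = 0.00721), from a low level of 1.34 CPM in siControl. Its call was lost in siSLC25A1 without siControl replicate 3 or siSLC25A1 replicate 1 or 2 (adjusted p = 0.0655 to 0.106) and in siACLY without siACLY replicate 3 (adjusted p = 0.0513).

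Among 12 tested genes that handle acetate or acetyl-CoA outside the 10, 2 passed in siSLC25A1, both higher, and 5 rose and 3 fell in both siACLY and siACO1, with medians of -0.01, -0.05 and 0.03. The shares of all genes called were 19.6%, 36.7% and 37.1% in these comparisons, so the siSLC25A1 count is near the background. OXCT1, which activates ketone bodies with coenzyme A in mitochondria, rose in every knockdown. It stood at 25.8, 28.6 and 27.1 CPM in siControl, 35.5, 33.5 and 35.8 in siSLC25A1, 57.2, 60.1 and 59 in siACLY, and 36.6, 38.2 and 39.4 in siACO1. No knockdown library overlapped siControl, and the siACLY libraries were the highest, with log2 fold changes of 0.36, 1.11 and 0.49 (adjusted p = 2.80e-05, 2.87e-15 and 6.54e-08). SLC16A3, a monocarboxylate carrier, rose in siSLC25A1 (0.16, adjusted p = 0.0365) and fell in siACLY (-0.64, adjusted p = 1.71e-09). The rise was lost in 6 of 19 alternatives (adjusted p = 0.0502 to 0.315): without siSLC25A1 replicate 1, where it was 0.07, without any 1 of the siControl libraries or siACO1 replicate 3, and with only the 2 groups in the fit. ALDH1B1, a mitochondrial aldehyde dehydrogenase that forms acetate, fell in siACLY (-0.32, adjusted p = 1.30e-05) and siACO1 (-0.28, adjusted p = 9.34e-05), and SIRT1, a deacetylase that activates ACSS2, rose in siACLY (0.16, adjusted p = 0.00656) and fell in siACO1 (-0.56, adjusted p = 2.70e-10).

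ACSS2 belongs to the sterol-regulated programme driven by SREBP transcription factors, and 12 other genes of it were tested. In siSLC25A1 2 rose and 3 fell (median -0.06), in siACLY 4 rose and 5 fell (-0.19), and in siACO1 3 rose and 5 fell (-0.04), so the list did not move in 1 direction. Among all genes tested, 10.3% were called higher and 9.27% lower in siSLC25A1, 18.4% and 18.3% in siACLY, and 17.8% and 19.3% in siACO1. SREBF1, which encodes the factor more tied to fatty acid synthesis, fell in all 3 (-0.32, -0.86 and -0.72; adjusted p = 8.17e-06, 1.89e-14 and 7.59e-13). SCD, a fatty acid desaturase, fell in all 3 as well (-0.32, -0.64 and -0.40; adjusted p = 0.000666, 1.16e-07 and 3.74e-05). SREBF2, the factor more tied to sterol synthesis, fell in siSLC25A1 (-0.23, adjusted p = 0.000444) and siACLY (-0.52, adjusted p = 5.61e-10), with a value of 0.02 in siACO1 (adjusted p = 0.823). ACACA, which carboxylates acetyl-CoA, fell in siACO1 (-0.66, adjusted p = 0.0195), from few counts (1.22 to 2.89 CPM in siACO1). This call was lost without siACO1 replicate 3 (-0.39, adjusted p = 0.146), siACO1 replicate 1 or siControl replicate 2 (-0.59 in both, adjusted p = 0.0689 and 0.0795), and over all alternatives the value ran from -1.08 to -0.39. HMGCS1, an early enzyme of sterol synthesis, rose in siACLY (0.60, adjusted p = 3.13e-09) and siACO1 (0.42, adjusted p = 1.76e-06). INSIG1, which holds SREBP in the endoplasmic reticulum, also rose in both (0.44, adjusted p = 6.15e-06, and 0.52, adjusted p = 3.47e-07).

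Of 9 tested HIF1 targets besides PDK1, 3 passed in siSLC25A1, all higher (median 0.16), 3 rose and 1 fell in siACLY (0.23), and 1 rose and 3 fell in siACO1 (-0.09). Over all genes tested, 19.6%, 36.7% and 37.1% were called, so the siACLY and siACO1 counts are little above the background. NDRG1, a stress-responsive gene, had the widest changes: 0.49 (adjusted p = 0.000134), 0.71 (adjusted p = 1.32e-07) and -1.01 (adjusted p = 2.39e-09) in siSLC25A1, siACLY and siACO1. SLC2A1, the glucose transporter GLUT1, rose by 0.24 in both siSLC25A1 (adjusted p = 4.93e-05) and siACLY (adjusted p = 2.06e-05), and by 0.11 in siACO1 (adjusted p = 0.0303). The siACO1 call of SLC2A1 was lost in 5 alternatives (0.08 to 0.11, adjusted p = 0.0646 to 0.133): without siControl replicate 1 or 2 or siACO1 replicate 3, with no filter, and with only the 2 groups in the fit. VEGFA, an angiogenic growth factor, rose in siSLC25A1 (0.21, adjusted p = 0.0372) and fell in siACO1 (-0.22, adjusted p = 0.0183). The siSLC25A1 value of VEGFA ran from 0.14 to 0.32 over the alternatives, and its call was lost in 7 of 19, among them those without any 1 of the siControl libraries, siSLC25A1 replicate 2 or 3 or siACO1 replicate 3 (adjusted p = 0.0513 to 0.188 over the 7). Its siACO1 call was lost in 4, with library totals and without siControl replicate 1 or siACO1 replicate 2 or 3 (adjusted p = 0.0537 to 0.0779). P4HA1, a collagen prolyl hydroxylase subunit, rose in siACLY (0.23, adjusted p = 0.000299), and ALDOA, a glycolytic aldolase, fell in siACO1 (-0.35, adjusted p = 0.0387), with 53.5% of its exon bases shared with other genes. The ALDOA call was lost in 5 alternatives, with library totals and without siControl replicate 1 or 3, siSLC25A1 replicate 1 or siACO1 replicate 1 (adjusted p = 0.0508 to 0.168), and ALDOA did not pass the test of any difference (adjusted p = 0.0984).

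**Figure D4:**
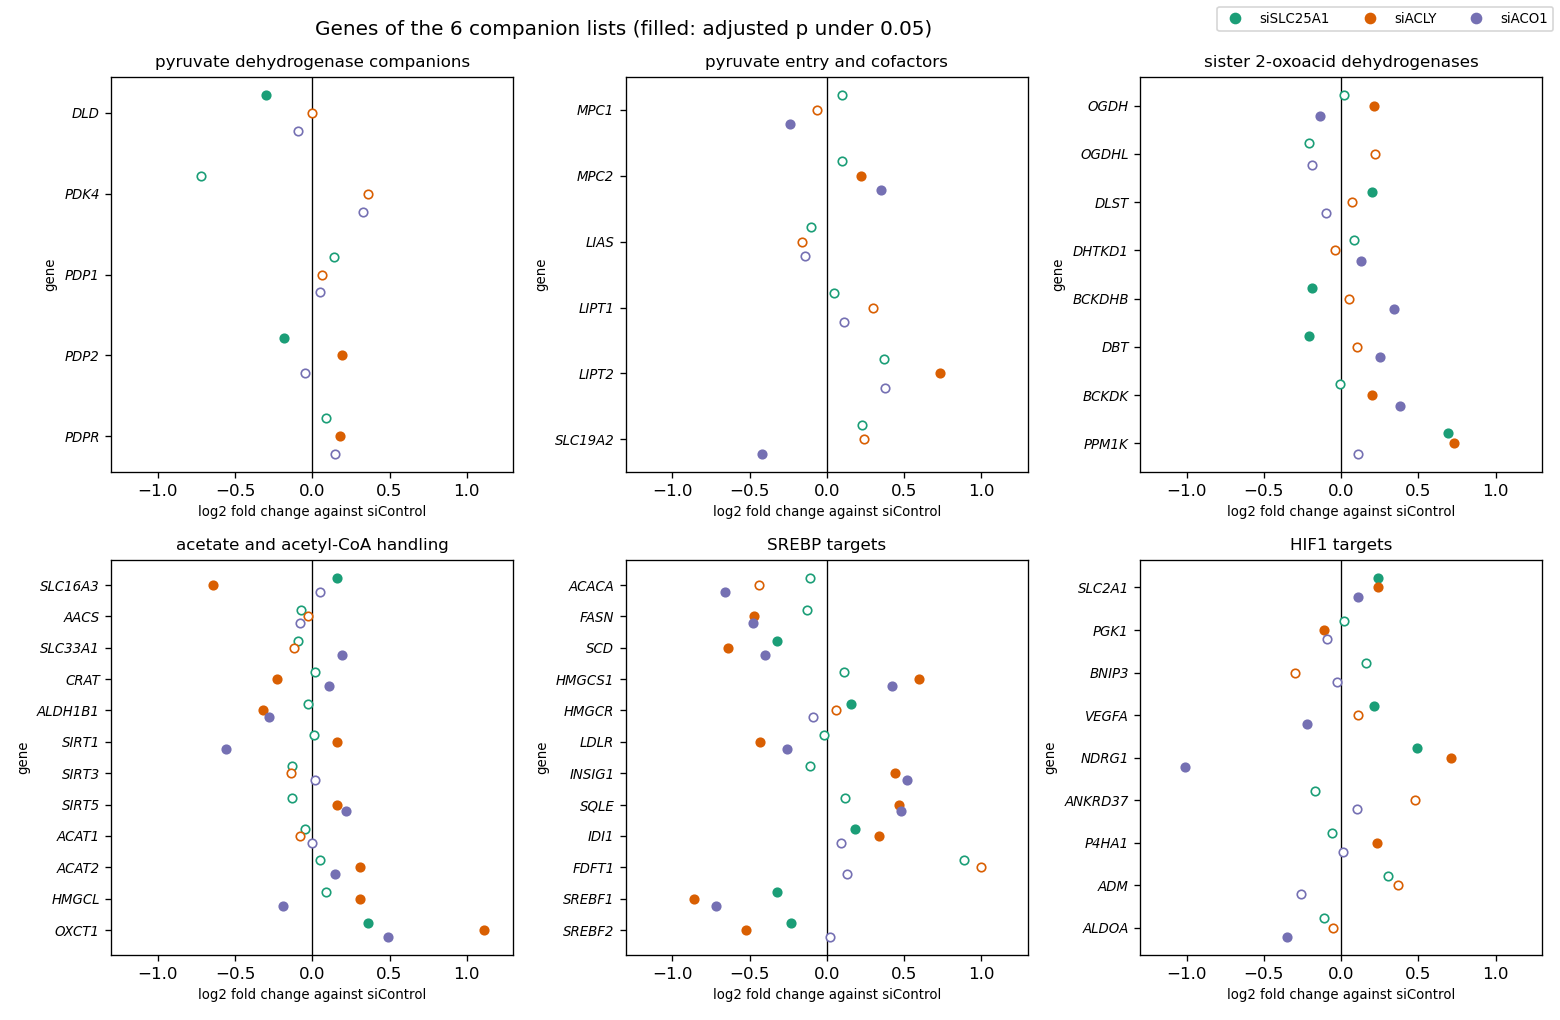
Log2 fold change against siControl (x axes) of tested genes of the 6 lists (y axes), with 1 panel per list and 1 colour per knockdown; filled points passed an adjusted p of 0.05. OXCT1 in siACLY (1.11) and NDRG1 in siACO1 (-1.01) lie farthest from 0 among the filled points.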

How the data were processed

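The authors deposited 1 table of raw read counts per gene for the 12 libraries; CASAVA, FastQC, Trim Galore, STAR 2.7.0e and DESeq2, and the builds GRCm39 and GRCh38, are named in the submitters' processing notes. The counter, annotation and strand setting are not given in the sources used here. Symbols matched 62700 of 70116 identifiers (89.4%), and gene places are those of GENCODE release 29. Genes passing edgeR's filterByExpr (16197) had trimmed-mean-of-M-values (TMM) scaling and went into 1 robust quasi-likelihood fit of the 12 libraries without a block (edgeR 4.0.16, R 4.3.3). The common biological coefficient of variation was 4.89%, with 8 residual degrees of freedom. Adjusted p-values are from its two-sided F tests with Benjamini-Hochberg adjustment over all genes tested; a gene was called under 0.05. Intervals are 95%. The code was tested on simulated data. Alternatives were other scalings and filters, a replicate block, 2-group fits, DESeq2 1.42.0 and leaving out each library. The labels do not say whether replicate numbers pair the libraries. Named genes were the members, the 3 targets, up to 3 called genes with the largest change per list and comparison, and the 3 genes most correlated with each of 2 members over 12 libraries (mean of at least 5 CPM); 3 genes that this rule names are not reported here. The members and lists were chosen with earlier results of these data known.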

Additional observations from a re-analysis of the deposited data

How the results depend on the processing

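Of 13 member calls against siControl, 10 were kept in all 19 alternatives; the other 3 (PDHA1 and DLAT in siSLC25A1, PDHX in siACLY) are given with their values above. Of 18 calls between knockdowns, 10 were kept. Scaling by library totals raised the median log2 fold change of all genes, against siControl, to 0.051 from 0.008 in siACLY and to 0.055 from 0.006 in siACO1, and against siSLC25A1 to 0.052 from 0.013 in siACLY and to 0.057 from 0.013 in siACO1. The share of calls that were higher went from 50.1% to 61%, from 47.9% to 59.4%, from 48.2% to 59% and from 48.2% to 57.7%, in the same order. Leaving out 1 library gave 1 to 4 members called in siSLC25A1 against siControl and 3 to 5 in siACO1 against siACLY. Values that did not pass changed sign as follows. PDK2 in siSLC25A1 was 0.00 with median-of-ratios factors and 0.00 with library totals, PDHA1 in siACLY against siSLC25A1 was 0.01 with library totals, and PDHX in siSLC25A1 was -0.00 with no filter. Leaving out 1 library gave, against siControl, -0.01 to 0.03 for PDHX, -0.03 to 0.05 for PDK1 and -0.08 to 0.06 for PDK2 in siSLC25A1, -0.06 to 0.11 for PDK2 in siACLY, and -0.01 to 0.08 for ACSS2 and -0.09 to 0.13 for PDK2 in siACO1. It gave -0.05 to 0.11 for PDK2 in siACLY against siSLC25A1 and -0.08 to 0.13 for PDK2 in siACO1 against siSLC25A1. In siACO1 against siACLY it gave 0.00 to 0.03 for DLAT (-0.00 without siACO1 replicate 3), -0.06 to 0.09 for PDK1 and -0.13 to 0.09 for PDK2. The cause of these changes was not tested.

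With the replicate block, 7 members differed among the groups and PDHB in siACLY passed (0.14, adjusted p = 0.0432); PDK2 in siACO1 against siACLY was 0.00. With each group's mean taken out, the log2 levels of same-numbered libraries correlated between -0.034 and 0.067. In siACO1 against siACLY these values were 0.011, 0.062 and 0.061, above the highest other-numbered ones (0.004, 0.011 and -0.02). All are low, and the labels do not say whether the numbers pair the libraries. The alternatives for the test of any difference were chosen after seeing the data. PDK2, with 97 to 225 counts per library, had the largest SE of the 9 genes tested (0.14).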
